A study of Mus musculus with 4 samples.

Results

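Apolipoproteins are the protein part of the particles that carry lipid in blood, and 10 genes of this family and of particle assembly were followed on 4 liver arrays: Apoa1, Apoa2, Apoa4, Apoa5, Apob, Apoc1, Apoc3, Apoe, Apoh and Mttp. They were taken by the gene name that the array annotation gives to each spot. They are 10 of the 36161 gene names on the array and are read by 13 of its 55681 probes, on 31 of its 59305 non-control spots. All mice were C57BL/6J at embryonic day 20 and all RNA was from whole liver, per the sample labels. Each of 4 groups had 1 array, for the microsomic (M) mice as MF in females and MM in males, and for the controls (C) as CF in females and CM in males. Microsomic mice are those with a low weight at birth for their sex, and the labels name no altered gene and no agent in any group. The paper describes newborn C57BL/6 N mice, littermate controls and 3 replicate experiments per group, so the labels and the paper differ in strain and age. Whether an array holds the RNA of 1 mouse or of several is not stated in the labels. The comparison of interest was M against C within each sex.

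The liver assembles very low density lipoprotein around a single molecule of apolipoprotein B, onto which the microsomal triglyceride transfer protein, the product of Mttp, loads lipid in the endoplasmic reticulum. Apolipoproteins A-I and A-II are the main proteins of high density lipoprotein, while the small exchangeable apolipoproteins C-I, C-III, A-IV, A-V and E move between particles and govern lipolysis in plasma and uptake by receptors. In rodents much apolipoprotein A-IV also comes from the intestine, and fetal liver and yolk sac already secrete these particles.

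The array measures each transcript by a 60-base probe, and 4 of the member probes are printed here because the comparisons turn on them. They lie in coding sequence, all their bases are in capitals because the whole probe pairs with the labelled RNA, and the annotation of the array gives their positions on mm9. The Apoa4 probe (chr9:46049661-46050404) is annotated over 744 bases of the genome, 684 more than its own length, so that it joins separate exons. Of the Apoa2 probes, A_55_P1966035 (chr1:173156320-173156379) is shown because it had the second largest higher value in females, where the other Apoa2 probe was saturated on MF. The Apob probes A_52_P441070 (chr12:8023194-8023253) and A_55_P1957198 (chr12:8012697-8012756) are shown because they read separate stretches of the same transcript and differed in their values.
Apoa4 A_51_P327491: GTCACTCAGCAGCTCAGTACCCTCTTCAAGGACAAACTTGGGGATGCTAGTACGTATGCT
Apoa2 A_55_P1966035: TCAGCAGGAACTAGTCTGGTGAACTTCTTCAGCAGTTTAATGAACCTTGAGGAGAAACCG
Apob A_52_P441070: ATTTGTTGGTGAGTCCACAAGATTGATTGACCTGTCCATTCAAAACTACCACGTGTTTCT
Apob A_55_P1957198: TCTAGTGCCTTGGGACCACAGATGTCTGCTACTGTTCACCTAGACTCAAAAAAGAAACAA

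Apoa1, Apoc3, Apoa4 and Apoa5 follow each other on chromosome 9 within 43.3 kb (chr9:46228630-46271921 on GRCm38.p6, from the RefSeq gene table), with no other gene of that table between them. Apoc1 and Apoe are neighbours on chromosome 7. The 250 bases before the start of Apoa4 and Apoa5 are printed as the neighbours of that cluster that stood furthest apart in M against C, and those of Apoh as another member with a match to an HNF4 motif. They come from the RefSeq promoter table on GRCm38.p6, written along the gene strand, with matches in capitals. The letters searched were CAAAGNNCA on both strands for HNF4, a nuclear receptor of hepatocytes, and TATAAA on the gene strand for the TATA box.
Apoa4 (chr9:46240594-46240843): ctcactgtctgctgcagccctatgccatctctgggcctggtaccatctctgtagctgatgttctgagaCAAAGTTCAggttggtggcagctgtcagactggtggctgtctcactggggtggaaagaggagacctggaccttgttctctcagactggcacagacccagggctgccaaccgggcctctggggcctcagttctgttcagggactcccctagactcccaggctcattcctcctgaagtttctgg
Apoa5 (chr9:46268358-46268607): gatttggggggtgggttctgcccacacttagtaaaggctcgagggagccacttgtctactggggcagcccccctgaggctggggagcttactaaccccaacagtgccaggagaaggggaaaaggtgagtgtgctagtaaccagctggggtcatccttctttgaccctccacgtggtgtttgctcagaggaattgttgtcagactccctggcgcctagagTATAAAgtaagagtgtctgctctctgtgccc
Apoh (chr11:108395047-108395296): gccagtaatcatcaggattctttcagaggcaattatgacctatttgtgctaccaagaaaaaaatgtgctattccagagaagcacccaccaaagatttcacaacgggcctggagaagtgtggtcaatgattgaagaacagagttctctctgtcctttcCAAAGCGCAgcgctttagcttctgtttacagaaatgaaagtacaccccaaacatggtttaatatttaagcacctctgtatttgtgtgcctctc
The HNF4 letters begin at -182 from the start of Apoa4, as CAAAGTTCA, and at -93 from the start of Apoh. Apob also held them. They are in 5.49% of the 32851 promoters of the same length, and in 3 of the 12 promoters that the table lists for 8 members. Apoc1 and Apoc3 are not in it. The TATA box letters in Apoa5 begin at -31, and such letters are in 7.59% of all promoters and in 5 of the 12 member promoters, from 4 of the 8 members. A match is a description of the letters. The promoters of Apoa4 and Apoa5 were picked for print by their differences, but no match was tested against a difference.

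Values are on the log2 scale, as the processed signal relative to the 75th percentile of its array, so 1 unit is a 2-fold difference. All 13 member probes were well above background on all 4 arrays, against 25040 of the 54429 probes with a spot without an outlier flag. Arrays were not replicated within a group, and their number limits the precision of each value, so no pair of groups has an error or a p-value. For a pair of groups, the only error that can be given is between spots. The probes printed 10 times on an array had a median SD of 0.24 to 0.32, depending on the array. In whole liver, fewer cells of a type and less RNA per cell cannot be told apart. On the slide, M and C arrays occupy different columns and the sexes different rows, so position on the slide and group cannot be told apart.

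Apoa4 was the member furthest apart in males and was higher in M in both sexes. Its log2 signal was 3.30 in CF, 4.81 in MF, 2.51 in CM and 6.10 in MM. Both M arrays lay above both C arrays. The difference was 1.51 in females, a 2.84-fold higher signal, and 3.59 in males, a 12-fold higher signal. As deposited, before any scaling, the Apoa4 signals were 6653 in CF, 24982 in MF, 3587 in CM and 63570 in MM. In males 99.9% of all probes compared lay lower than Apoa4 in this difference, and in females 95.3%. Over the 6 other ways of processing that were tried for single probes, the difference ran from 1.21 to 1.97 in females and from 3.18 to 4.15 in males, past 1.5-fold each time. How far the females and the males differ from each other was not tested.

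Apoa5, a small apolipoprotein that promotes lipolysis of triglyceride, went the other way from its neighbour. Its log2 signal was 2.54 in CF, 0.13 in MF, 1.65 in CM and 1.04 in MM. Both C arrays lay above both M arrays. In females the signal was 5.32-fold lower in M, a difference of -2.41, and just 1.40% of all probes lay lower. In males it was 1.53-fold lower, a difference of -0.62, which is close to the threshold. That call in males held in 2 of the 6 other ways of processing, where the difference ran from -0.70 to -0.06, while the females stayed between -2.48 and -2.01.

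**Figure D1:**
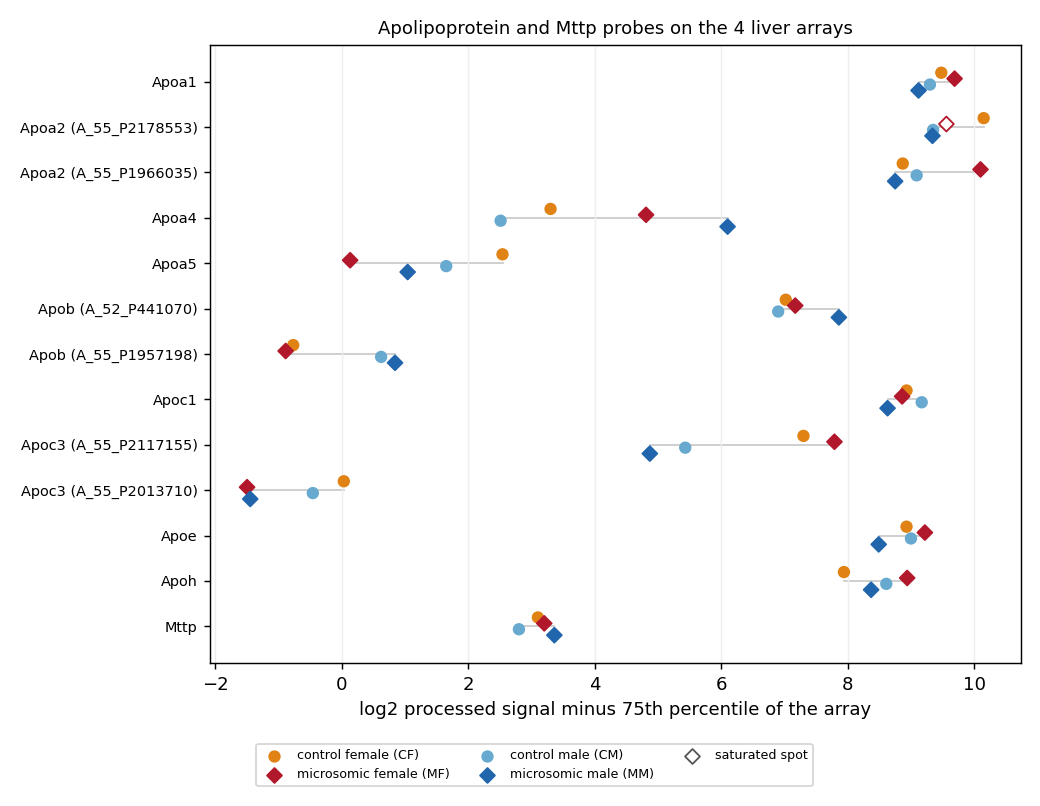
Log2 processed signal relative to the 75th percentile of its array (x axis) for the 13 member probes (y axis) on 4 arrays, 1 point per array; open points are saturated spots. Apoa4 in M (4.81 and 6.10) lies right of Apoa4 in C (3.30 and 2.51), Apoa5 shows the opposite order, and Apoc3 A_55_P2117155 is split by sex. Levels of different probes are not comparable.

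Apoc3, whose product holds back lipolysis, is read by 2 probes that did not behave alike. The probe A_55_P2117155, for the RefSeq transcript, gave 7.30 in CF, 7.79 in MF, 5.43 in CM and 4.87 in MM. It differed between M and C by 0.49 in females and -0.56 in males, both within 1.5-fold with this scaling. Over the 6 other ways of processing the male difference ran from -1.16 to 0.0, past 1.5-fold lower in 3. The female difference ran from -0.35 to 0.89, past 1.5-fold higher in 2. The sexes stood apart here: males were lower than females by 3.66-fold among controls and by 7.60-fold among M mice, and both male arrays lay below both female arrays. Of all probes, 4.78% were more than 1.5-fold lower in males in both groups. The probe A_55_P2013710 is annotated to an Ensembl transcript of Apoc3 and gave 0.03 in CF, -1.50 in MF, -0.46 in CM and -1.45 in MM. Both M arrays lay below both C arrays, by 2.88-fold in females and 1.99-fold in males. This probe was dim, with processed signals of 688 in CF, 316 in MF, 455 in CM and 338 in MM. A_55_P2117155 gave 106421 in CF, 197842 in MF, 26982 in CM and 26982 in MM. A lower Apoc3 signal in M in both sexes thus rests on the dim probe alone. The male difference of -0.99 ran from -1.53 to -0.43 over the 6 other ways of processing and was inside 1.5-fold without scaling.

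Apob, the structural protein of very low density lipoprotein, was higher in M in males by its brighter probe. A_52_P441070 gave 7.02 in CF, 7.17 in MF, 6.90 in CM and 7.86 in MM. MM was the highest array, at 1.96-fold over CM, whereas MF was 1.11-fold over CF. The male difference of 0.97 stayed past 1.5-fold in all 6 other ways of processing, from 0.78 to 1.53. The female difference changed sign with quantile normalization, to -0.62, and ran from -0.72 to 0.55. The other probe, A_55_P1957198, gave -0.77 in CF, -0.89 in MF, 0.62 in CM and 0.84 in MM. It was within 1.5-fold between M and C in both sexes (-0.12 and 0.22) and was higher in males than in females, by 2.62-fold among controls and 3.31-fold among M mice, against 10.7% of all probes more than 1.5-fold higher in males in both groups. A_52_P441070 was 1.09-fold lower in CM than in CF, while MM exceeded MF by 1.62-fold.

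Mttp, the partner of Apob in assembly, gave 3.1 in CF, 3.20 in MF, 2.80 in CM and 3.36 in MM. The male difference of 0.56 was a 1.48-fold higher signal, just inside the threshold, and past it in 4 of the 6 other ways of processing. The female difference was 0.10. MM was thus the highest array for Mttp as for the brighter Apob probe.

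Apoa1, the main protein of high density lipoprotein, did not differ by 1.5-fold in either sex. Its log2 signal was 9.48 in CF, 9.69 in MF, 9.30 in CM and 9.12 in MM, each the mean of 8 spots. The female difference was 0.21 ± 0.65 (SD, n = 8 spots), with 5 of 8 spots above 0 and a range from -0.79 to 1.08. In the spots of rows 81 and 120 the signals were 1148311 and 1056441 on MF and 416408 and 379126 on CF, and in row 253 they were 616651 on MF and 804660 on CF. The used spots below 0 in females lay in columns 6, 17 and 7 of the array, where CF gave 804660, 552490 and 528203. Another spot in column 17, in row 355, was at 0.14. The part of the place on the array in this spread was not tested. The male difference was -0.18 ± 0.21 (SD, n = 8 spots).

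Apoe, a ligand of lipoprotein receptors, was printed in the same way. Its log2 signal was 8.93 in CF, 9.22 in MF, 9.0 in CM and 8.49 in MM, and MM was the lowest array. The female difference was 0.28 ± 0.27 (SD, n = 8 spots), above 0 in 7 of 8 spots, but it turned to -0.42 with quantile and -0.20 with normexp and quantile normalization. The male difference was -0.50 ± 0.27 (SD, n = 8 spots), below 0 in each of the 8 spots, but within 1.5-fold in the mean. It was 0.06 without scaling, 0.02 with normexp and quantile normalization and -0.09 with quantile normalization, so its sign depended on the scaling. Spots of an array are technical repeats of the same hybridisation, so these values say nothing on the spread between mice.

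**Figure D2:**
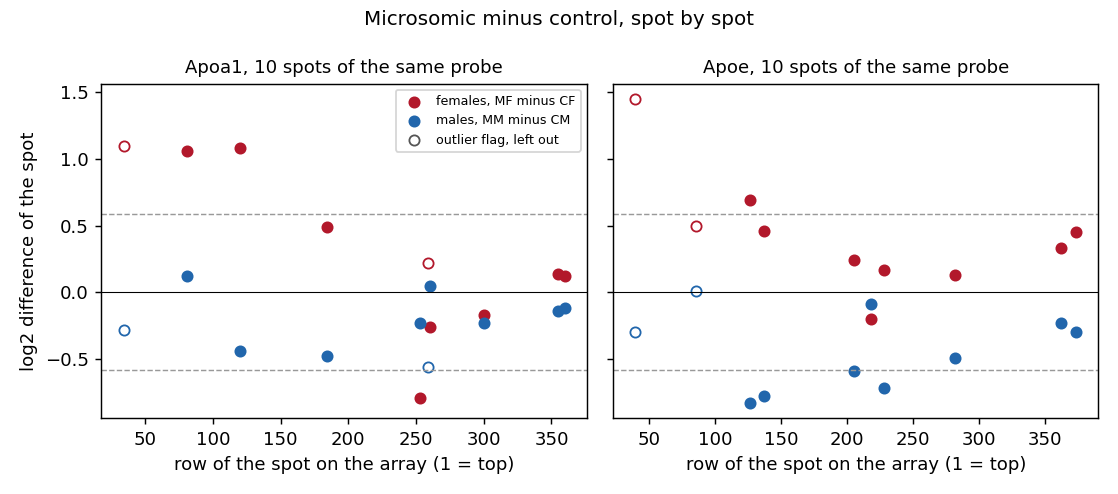
Log2 difference M minus C of each of the 10 spots of the Apoa1 and the Apoe probe (y axis) against the row of the spot on the array (x axis), females in red and males in blue; open points carried an outlier flag and were left out, and dashed lines mark 1.5-fold. In females the used Apoa1 spots are highest in row 120 (1.08) and lowest in row 253 (-0.79). Rows 355 and 360 are at 0.14 and 0.12, and the columns of the spots are not shown. The male Apoe spots that were used all lie below 0 with the scaling to the 75th percentile. Without scaling their mean is 0.06.

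Apoa2, the other main protein of high density lipoprotein, is read by 2 probes. A_55_P1966035 stood at 8.87 in CF, 10.10 in MF, 9.09 in CM and 8.75 in MM. MF was the highest array, 2.35-fold over CF, while MM was 1.27-fold below CM. A_55_P2178553 stood at 10.15 in CF, 9.56 in MF, 9.35 in CM and 9.34 in MM. Its MF spot was saturated, which makes 9.56 a lower limit, so the females were not compared by it. Its male difference was -0.01. A_55_P1966035 is thus the only probe that gives Apoa2 in females. The saturated MF spot had a processed signal of 674046, below the 977516 of A_55_P1966035 on MF, which carried no saturation flag. Some MF spots of Apoa1 also exceeded 674046 without the flag. The effect of a signal ceiling on the values of the bright members was not tested. The brighter MF spot of A_55_P1966035 lies in row 141 of the 384 rows of the array, in the upper part where the Apoa1 spots of MF were also bright, and the part of position in this value was not tested beyond the block medians, with which the probe stayed past 1.5-fold.

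Apoc1, which inhibits lipoprotein uptake, was within 1.5-fold in both sexes. Its log2 signal was 8.93 in CF, 8.86 in MF, 9.17 in CM and 8.63 in MM. Apoh, a phospholipid-binding plasma protein also called beta-2-glycoprotein I, stood at 7.94 in CF, 8.94 in MF, 8.61 in CM and 8.37 in MM. CF was the lowest array for Apoh, 2-fold below MF, whereas the males differed by -0.24. With quantile normalization the female difference of Apoh was 0.16 and with normexp and quantile normalization 0.46, both inside 1.5-fold.

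Over the members, 3 of 12 probes were more than 1.5-fold higher in MF than in CF (Apoa4, Apoa2 A_55_P1966035 and Apoh), against 19.1% of the 34964 probes compared, and 2 were lower (Apoa5 and Apoc3 A_55_P2013710), against 22.3%. In males 2 of 13 were higher in MM than in CM (Apoa4 and Apob A_52_P441070), against 17.8% of 36585 probes, and 2 were lower (Apoa5 and Apoc3 A_55_P2013710), against 23.3%. These shares are near those of all probes. The median difference of the members was 0.18 in females, where that of all probes was -0.05, and -0.24 in males, where that of all probes was 0.00. Higher in M in both sexes was 1 probe, Apoa4, against 3.05% of all probes, and lower in both were 2, those of Apoa5 and Apoc3 A_55_P2013710, against 3.94%. No member passed 1.5-fold in opposite directions in the sexes, as 9.95% of all probes did.

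**Figure D3:**
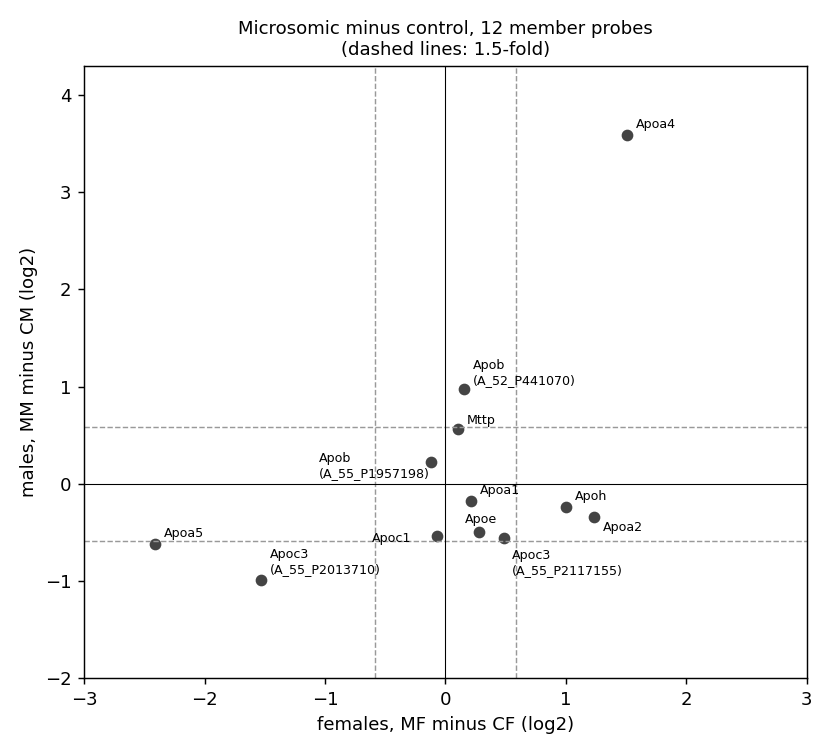
Log2 difference of MF minus CF (x axis) against MM minus CM (y axis) for the 12 member probes compared in both sexes; dashed lines mark 1.5-fold and each point is 1 probe. Apoa4 stands alone in the upper right at 1.51 and 3.59, and the probes of Apoa5 and Apoc3 A_55_P2013710 lie in the lower left.

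The difference of M from C, with sex in the model, was also fitted with limma over the 4 arrays, which leaves 1 residual degree of freedom. That residual is only how far M minus C differs between the sexes, which stand in for replicates. limma moderates the variance of each probe by that of all probes fitted. The errors and p-values of this fit therefore do not measure the spread between mice. Over 25040 probes it called none at an adjusted p of 0.05 (0% called; Benjamini-Hochberg), and the smallest adjusted p was 0.657. An unadjusted p under 0.05 was reached by 4.49% of all probes and by 3 of 13 member probes. These were Apoa4 at 2.55 ± 0.55 (SE, unadjusted p = 0.00165, adjusted p = 0.998), Apoc3 A_55_P2013710 at -1.26 ± 0.43 (SE, unadjusted p = 0.0182, adjusted p = 0.998) and Apoa5 at -1.51 ± 0.52 (SE, unadjusted p = 0.0195, adjusted p = 0.998). Without scaling between arrays the adjusted p of Apoa4 was 0.0269, the one case in which limma called a member, and over the other ways of fitting it lay between 0.117 and 1. Without scaling the median of all probes moved up in M by 0.32 in females and 0.49 in males.

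Other genes of lipoprotein metabolism were read by their brightest probe, 67 in all. In females 22 of 65 compared were more than 1.5-fold higher in M, against 19.9% of all genes, and 11 were lower, against 21.0%, with a median of 0.23. In males 19 of 66 were higher, against 17.7%, and 8 lower, against 23.1%, with a median of 0.23. Of the 65 compared in both sexes, 8 were higher in M in both, against 3.18% of all genes, none was lower in both, against 3.79%, and 7 went opposite ways, against 9.86%. Among the other apolipoproteins, 3 of 6 were higher in each sex and none lower. Apoc2, the activator of lipoprotein lipase, was 7.93 in CF, 9.34 in MF, 7.35 in CM and 8.06 in MM, so that M was higher by 1.40 and 0.71. Apoc4, the gene next to Apoc1, was higher in M by 0.61 and 0.76.

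Of the 14 receptors and transporters, 7 were higher and 3 lower in females, and 4 higher and 3 lower in males. For this list and each list below, the shares over all genes were 19.9% higher and 21% lower in females. In males they were 17.7% higher and 23.1% lower. Vldlr, the very low density lipoprotein receptor, was -0.61 in CF, 0.68 in MF, -1.31 in CM and -0.28 in MM. It was higher in M by 1.28 in females and 1.02 in males.

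Of the 16 genes of particle assembly and secretion, 4 were higher and 2 lower of 15 compared in females, and 4 higher and 1 lower in males. Of the 10 lipases and remodelling genes, 2 were higher and 1 lower in females and 2 higher and 2 lower in males, of 9 compared. Angptl8, listed on the array as Gm6484, encodes an inhibitor of lipoprotein lipase and was 0.60 in CF, 5.48 in MF, 1.27 in CM and 2.20 in MM. M exceeded C by 29.5-fold for Angptl8 in females and by 1.91-fold in males. Of the 21 transcription regulators, 6 were higher and 5 lower in females, and 6 higher and 2 lower in males. Hnf4a, which encodes the receptor named above for its motif, was 6.13 in CF, 6.77 in MF, 5.8 in CM and 6.81 in MM, higher in M by 0.64 and 1.01. Any relation of Hnf4a to the motif matches or to the member values was not tested. Foxa3, a liver forkhead factor, was higher in M by 2.31 and 0.85.

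Genes of other tissues moved between the arrays, and their part in the member values was not tested. The shares over all genes given above stand beside the counts of these lists too. Of 27 intestinal genes, 19 of 24 compared were higher in MF than in CF and 1 was lower, with a median of 3.75, and their summed scaled signal was 147 in CF, 285 in MF, 136 in CM and 148 in MM. In males 4 of 17 compared were higher and 8 lower, with a median of -0.32. Alpi, the intestinal alkaline phosphatase, was well above background on MF alone, and Muc2 and Reg3g on no array. Fabp2, the intestinal fatty acid binding protein, was higher in M in both sexes as Apoa4 was, by 3.15 and 2.38, at 2.81 in CF, 5.95 in MF, 2.59 in CM and 4.98 in MM. The brightest intestinal gene, Tff3, was 7.05 in CF, 7.40 in MF, 6.86 in CM and 6.67 in MM. It makes up most of the summed signal on each array, so that sum says little on the other genes. Tff3 differed by 0.35 and -0.20, and Olfm4 and Krt20 by 0.06 and 0.39 in males.

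The 15 heart genes had a summed scaled signal of 250 in CF, against 2.87 in MF, 7.47 in CM and 3.28 in MM. In females 14 were lower in M, all but Myl7 (0.08), with a median of -8.0 and Myl2 furthest apart at -10.39, and in males 10 of 14 were lower, with a median of -1.52 and Myh6 furthest apart at -3.53. By the mean of the 4 arrays Myl4, Myl3, Tnnt2 and Actc1 were the brightest of them, while on CF alone Myl2 (5.76) and Myl3 (5.64) were. The 17 hepatocyte genes on the array, led by Alb, Fgb, Ahsg and Kng1, were well above background on all 4 arrays, which is the defining marker set of the labelled tissue. Of these, 3 of 15 were higher and 1 lower in females, with a median of 0.36, and none was higher and 6 of 17 lower in males, with a median of -0.33; Tat stood furthest apart in females at -1.69 and Fgb in males at -1.05. Of 17 macrophage genes, 11 were higher and none lower in females, and 3 were higher and 3 lower in males. Csf1r, C1qc, Cd5l and Marco were the brightest of these, with Csf1r furthest apart in females at 1.89 and Vsig4 in males at 1.39. Of the 18 erythroid genes, 3 of 15 were higher and 3 lower in females, and 1 of 18 was higher and 4 were lower in males; the globin genes Hbb-b1, Hba-a2, Hba-a1 and Hbb-b2 were the brightest, with Tspo2 furthest apart in females at 0.87 and Slc4a1 in males at -1.64. With 1 array per group, neither MF nor CF could be left out of the female comparison.

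**Figure D4:**
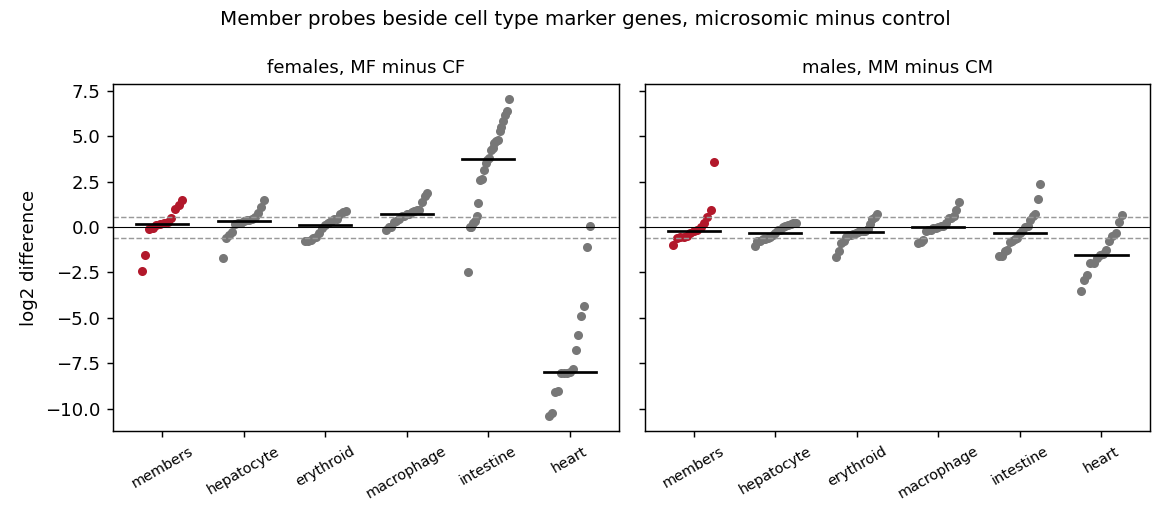
Log2 difference M minus C (y axis) of the member probes (red) and of the marker genes of 5 cell types or tissues (grey), each point 1 probe or gene and each bar the median; dashed lines mark 1.5-fold. In females the intestinal genes have a median of 3.75 and the heart genes of -8.0, while the members have 0.18; in males the Apoa4 point at 3.59 lies above every marker gene.

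Apoa4 and Apoa5 in females and Apoa4 and Apob A_52_P441070 in males stayed on their side of 1.5-fold under each of the 6 others, as did Apoa2 A_55_P1966035 and Apoc3 A_55_P2013710 in females. Apoc1 in females ran from -0.83 to 0.33, and Apoc3 A_55_P2117155 from -0.35 to 0.89, so that neither had a settled direction.

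**Figure D5:**
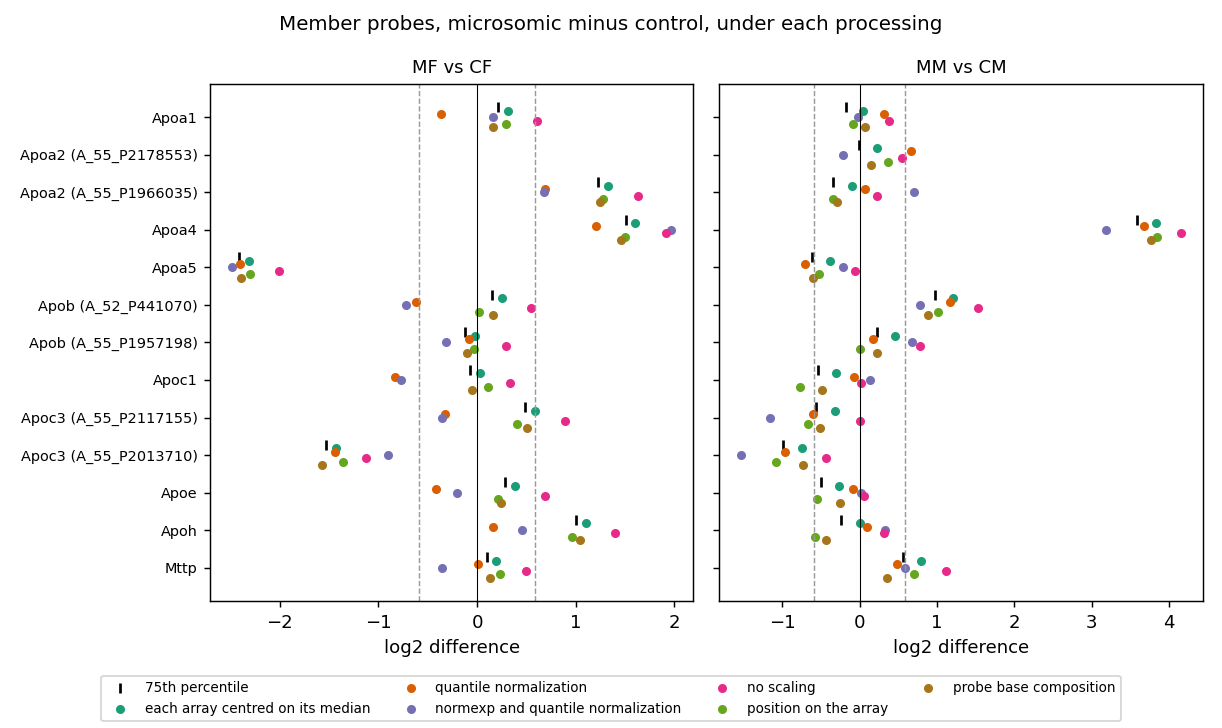
Log2 difference M minus C (x axis) of each member probe (y axis) in females and males under 7 ways of processing; the black bar is the scaling to the 75th percentile used in the text, points are the alternatives and dashed lines mark 1.5-fold. The Apoa4 values lie between 1.21 and 1.97 in females and between 3.18 and 4.15 in males, while Apoc1 lies on both sides of 0.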

How the data were processed

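Liver RNA of 4 samples, 1 per group, was labelled with Cy3 by the authors and hybridised to mouse Agilent 60-base oligonucleotide arrays, read in 1 colour. Scans were quantified by the authors in Agilent Feature Extraction 10.7.3.1 (per the file headers), and the deposited processed signal is a background-subtracted and detrended intensity on a linear scale, with no normalization between arrays; their value table equals it in all 62976 spots within a relative tolerance of 1e-05. Here each array was divided by the 75th percentile of its non-control spots and log2 was taken. Spots that any array flagged as outliers were dropped (27 of 31 member spots remained) and spots of the same probe were averaged. A probe was compared where at least 1 of both arrays gave a signal well above background, and was called past 1.5-fold; against an array where it was dim, the lowest signal well above background there was used, and a spot saturated on the dimmer side was not compared. limma 3.58.1 (R 4.3.3) was fitted over probes well above background on all 4 arrays and was tested on simulated data. Tables and figures were made with Python 3.11.15, numpy 2.4.6, pandas 2.3.3 and matplotlib 3.10.9.

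The members and the gene lists were chosen with earlier results of these data known. The text names every member, at most 12 listed pathway genes, those with the largest smaller difference past 1.5-fold in both sexes, other lists as counts, and of the marker lists the 4 brightest genes and those furthest apart; Apoc4, Surf4 and Abcg1 were named after their values were seen. Some of the pathway genes that the rule names are not reported here. Alternatives were other scalings, filters, probe choices and thresholds, and medians by position (blocks of 24 array rows by 20 columns) or probe base composition removed. Gene names are those of the array, positions of probes are on mm9, and promoters and gene order come from RefSeq on GRCm38.p6; no position was moved between builds. The paper describes replicate experiments in each group, while the series has 1 array per group. All of these arrays were used here.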

Additional observations from a re-analysis of the deposited data

Results flagged for a closer look

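No member passed 1.5-fold in opposite directions in the sexes. Of the 65 other lipoprotein genes compared in both sexes, 7 did, with every value on the log2 scale, and the difference between the sexes was not tested. Ppargc1b, a coactivator, was lower in MF than in CF (-1.32) and higher in MM than in CM (1.16). Mia2, which takes part in the export of large cargo from the endoplasmic reticulum, was lower in females (-1.06) and higher in males (1.02). Its signals were dim, at -4.11 in CF, -5.17 in MF, -3.87 in CM and -2.85 in MM. Scarb1, the high density lipoprotein receptor, was higher in females (1.74) and lower in males (-0.96). Foxa2, a forkhead factor, was lower in females (-0.83) and higher in males (0.93). Angptl4, an inhibitor of lipoprotein lipase, was higher in females (0.78) and lower in males (-1.10). Surf4, a cargo receptor, was lower in females (-0.64) and higher in males (0.59), and Abcg1, a sterol transporter, higher in females (0.61) and lower in males (-1.22). Of all genes by their brightest probe, 9.86% went opposite ways past 1.5-fold, and the 7 of 65 are near that share.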

How the results depend on the processing

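The medians of the members changed sign: in females to -0.34 with quantile and -0.31 with normexp and quantile normalization, in males to 0.10, 0.13 and, without scaling, 0.32. In females, higher calls moved from 3 to 6 without scaling, and lower calls from 2 to 4 with either quantile setting and to 1 by the brightest probe of a gene. In males, higher calls moved from 2 to 5 with normexp, to 4 without scaling and to 1 at 2-fold, and lower calls from 2 to 1 with median centring or by the brightest probe, and to 0 without scaling or at 2-fold. limma called 1 member (Apoa4) without scaling and none under the other fits. In the main fit 1 of 13 member probes (Apoa4) passed the threshold of the methods (unadjusted p under 0.01 and over 1.5-fold), as did 210 of all 25040 probes. Where the variance was let follow intensity, 2 member probes and 249 of all probes passed it. For all probes, the share of calls that were higher in M was 46.2% in females and 43.4% in males, and 77.9% and 77.6% without scaling; with median centring it was 60.5% in males. Calls by limma over all probes went from 0 to 13 with median centring and 36 without scaling. Of 114 values of single members under an alternative, 105 moved by less than the spread of a difference between replicate spots (SD 0.68) and 9 by more. Median centring and no scaling each shift all probes of a comparison by 1 constant below 0.68, so those values could not move by more. The 0.68 comes from all probes printed 10 times, dim ones included, whose median SD on an array was 0.24 to 0.32. The count is therefore no measure of how stable the members are. No difference past 1.5-fold under the 75th percentile changed sign, but Apob in females, within 1.5-fold there (0.15), went past it the other way with quantile (-0.62) and with normexp and quantile normalization (-0.72). The cause was not tested. No paired analysis was possible because each group has 1 array, and no replicate could be left out.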
